A study of Homo sapiens with 3 samples.

Results

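The genes described here load peptides onto HLA molecules and carry them to the cell surface, where T cells and natural killer cells read them. The 34 members were taken by name from a list of presentation genes. No measured value enters the rule, but the members were chosen with earlier results of these data known. They are 5 class I heavy chains, 10 genes of the class I light chain and peptide loading, 12 class II genes, 5 transcriptional regulators and the 2 MIC stress ligands. All 34 had a row among the 60880 gene rows of the library. Levels were read in wild-type NCI-H1975, an established human lung adenocarcinoma line grown without a stated drug treatment, from the RNA-seq library labelled replicate 2. The series sets this line against an anlotinib-resistant derivative and against resistant cells with knockdown of the transcription factor TFAP2A. Those cells and the 2 wild-type ATAC-seq samples were not analysed here. With 1 library there is no replicate spread and no test between cell states, and every value describes the wild-type line.

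Class I molecules pair a heavy chain with beta-2-microglobulin and are made by almost all nucleated cells. They display peptides that the proteasome cuts in the cytosol and the TAP transporter pumps into the endoplasmic reticulum. Class II molecules pair an alpha with a beta chain, are guided by the invariant chain CD74 through the endosomes, and are made mainly by professional antigen-presenting cells, although epithelial cells can express them under interferon gamma. NLRC5 and CIITA are related coactivators of the class I and class II genes. Both act on promoters that hold a conserved pair of elements, the X and Y boxes, bound by the RFX complex, CREB or ATF proteins and the factor NF-Y.

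The promoters of the class I genes are printed first, to show which known control elements are held by genes whose read counts ran from 12 to 14012. The sequences are from RefSeq, build GRCh38.p14, and not from the cells, whose own alleles may differ. Each stretch of 116 bases runs from -150 to -35 relative to an annotated start, 5′ to 3′ on the strand of the gene. For HLA-G, which has several annotated starts, the most downstream was used. Capitals mark TGACG, the core of the X2 box, its variant TGATG, and CCAAT, the core of the Y box, each on either strand.
HLA-B (chr6:31357214-31357329, minus strand): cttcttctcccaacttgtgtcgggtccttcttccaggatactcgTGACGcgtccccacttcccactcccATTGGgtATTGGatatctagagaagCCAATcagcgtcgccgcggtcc
HLA-C (chr6:31272127-31272242, minus strand): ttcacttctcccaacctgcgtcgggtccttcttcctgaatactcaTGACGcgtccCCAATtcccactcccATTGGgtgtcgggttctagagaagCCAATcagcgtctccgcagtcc
HLA-F (chr6:29723284-29723399, plus strand): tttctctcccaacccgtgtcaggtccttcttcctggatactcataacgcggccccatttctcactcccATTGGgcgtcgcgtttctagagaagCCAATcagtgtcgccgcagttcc
HLA-G (chr6:29827675-29827790, plus strand): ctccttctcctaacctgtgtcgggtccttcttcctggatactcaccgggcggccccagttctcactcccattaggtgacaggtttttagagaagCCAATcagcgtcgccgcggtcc
B2M (chr15:44711367-44711482, plus strand): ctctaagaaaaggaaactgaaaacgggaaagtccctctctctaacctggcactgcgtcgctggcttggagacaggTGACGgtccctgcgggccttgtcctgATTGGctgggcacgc

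HLA-B and HLA-C both held TGACG followed by the Y box core on the opposite strand, with 25 bases from the first base of one to that of the other. B2M had the same order with 26 bases between them. In HLA-F and HLA-G the letters TGACG were not found in this window. The absence of the letters from a window says nothing about binding of the factors.

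Of the class II genes with a promoter window, 7 are shown, whose counts ranged from 0 to 6329. HLA-DPA1, HLA-DQA1, HLA-DQB1 and HLA-DOA also have windows and are not printed. In those windows HLA-DOA had neither TGACG nor TGATG, and HLA-DPA1 had no CCAAT. The stretches and the capitals are as above.
CD74 (chr5:150412945-150413060, minus strand): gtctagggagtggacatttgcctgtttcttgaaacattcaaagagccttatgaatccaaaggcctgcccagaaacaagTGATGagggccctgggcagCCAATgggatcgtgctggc
HLA-DMA (chr6:32953132-32953247, minus strand): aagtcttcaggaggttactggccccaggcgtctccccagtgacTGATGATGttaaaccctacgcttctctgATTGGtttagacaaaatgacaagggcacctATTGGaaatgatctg
HLA-DMB (chr6:32941063-32941178, minus strand): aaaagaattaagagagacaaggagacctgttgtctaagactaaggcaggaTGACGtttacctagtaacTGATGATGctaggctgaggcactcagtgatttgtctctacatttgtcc
HLA-DOB (chr6:32817037-32817152, minus strand): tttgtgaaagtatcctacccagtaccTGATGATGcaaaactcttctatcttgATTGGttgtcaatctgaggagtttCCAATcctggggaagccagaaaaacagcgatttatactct
HLA-DRB1 (chr6:32589883-32589998, minus strand): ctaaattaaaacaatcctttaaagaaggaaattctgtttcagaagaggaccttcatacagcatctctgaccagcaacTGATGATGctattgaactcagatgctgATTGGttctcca
HLA-DRB5 (chr6:32530322-32530437, minus strand): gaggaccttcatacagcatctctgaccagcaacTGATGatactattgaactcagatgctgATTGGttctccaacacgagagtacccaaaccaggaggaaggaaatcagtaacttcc
HLA-DPB1 (chr6:33075840-33075955, plus strand): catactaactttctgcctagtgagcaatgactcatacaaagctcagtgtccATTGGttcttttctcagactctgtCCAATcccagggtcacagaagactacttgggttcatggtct

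In HLA-DRB1, HLA-DRB5, HLA-DMA and HLA-DOB the variant TGATG preceded the Y box core on the opposite strand. These 4 genes had 6, 3, 490 and 0 counts. A search of all promoter windows used the letters TGACG or TGATG on the strand of the gene, followed by ATTGG, the reverse complement of CCAAT, 15 to 35 bases later from first base to first base. This pair was in 7 of the 43 member windows, against 0.857% of all 35116 windows. It was held by 7 of the 29 members with a window, namely HLA-B, HLA-C, B2M, HLA-DRB1, HLA-DRB5, HLA-DMA and HLA-DOB. The spacing was set after the member sequences had been read, so the count describes them and tests nothing. The single motifs are common. TGACG was in 24.6% of all windows, TGATG in 32.9% and CCAAT in 34.6%, each on either strand. Of the 43 member windows 15, 15 and 25 had them, in 12, 15 and 22 of the 29 members. Matches to different motifs may share bases, and some members have several annotated starts and so several chances of a match. No promoter entry was matched for HLA-E, PDIA3, NLRC5, CIITA and HLA-DRA.

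The third set of sequences shows the interferon response element, to which interferon regulatory factors are known to bind. Capitals mark its core, here GAAA, any 2 bases and GAAA, on either strand, with overlapping matches joined.
TAP1 (chr6:32853803-32853858, minus strand): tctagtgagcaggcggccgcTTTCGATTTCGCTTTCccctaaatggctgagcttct
TAP2 (chr6:32838768-32838817, minus strand): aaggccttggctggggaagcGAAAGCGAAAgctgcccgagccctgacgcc
TAPBP (chr6:33314079-33314118, minus strand): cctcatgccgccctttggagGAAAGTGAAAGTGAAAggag
B2M (chr15:44711353-44711408, plus strand): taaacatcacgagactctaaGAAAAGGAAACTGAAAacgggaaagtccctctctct
HLA-F (chr6:29723258-29723307, plus strand): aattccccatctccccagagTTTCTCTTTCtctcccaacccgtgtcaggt

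TAP1, TAPBP and B2M each held a pair of overlapping matches and TAP2 and HLA-F held 1. ERAP1, ERAP2 and RFX5 also had a match at 1 of their annotated starts. In all, 8 of the 43 member windows, in 8 of the 29 members, had the core, against 3.57% of all windows. Only this exact core was searched. Its absence from a window, as in HLA-B and HLA-C, says nothing about other forms of the element or about binding. The 5 genes whose element is printed had 1697, 541, 6223, 7814 and 790 counts in the order shown.

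**Figure D1:**
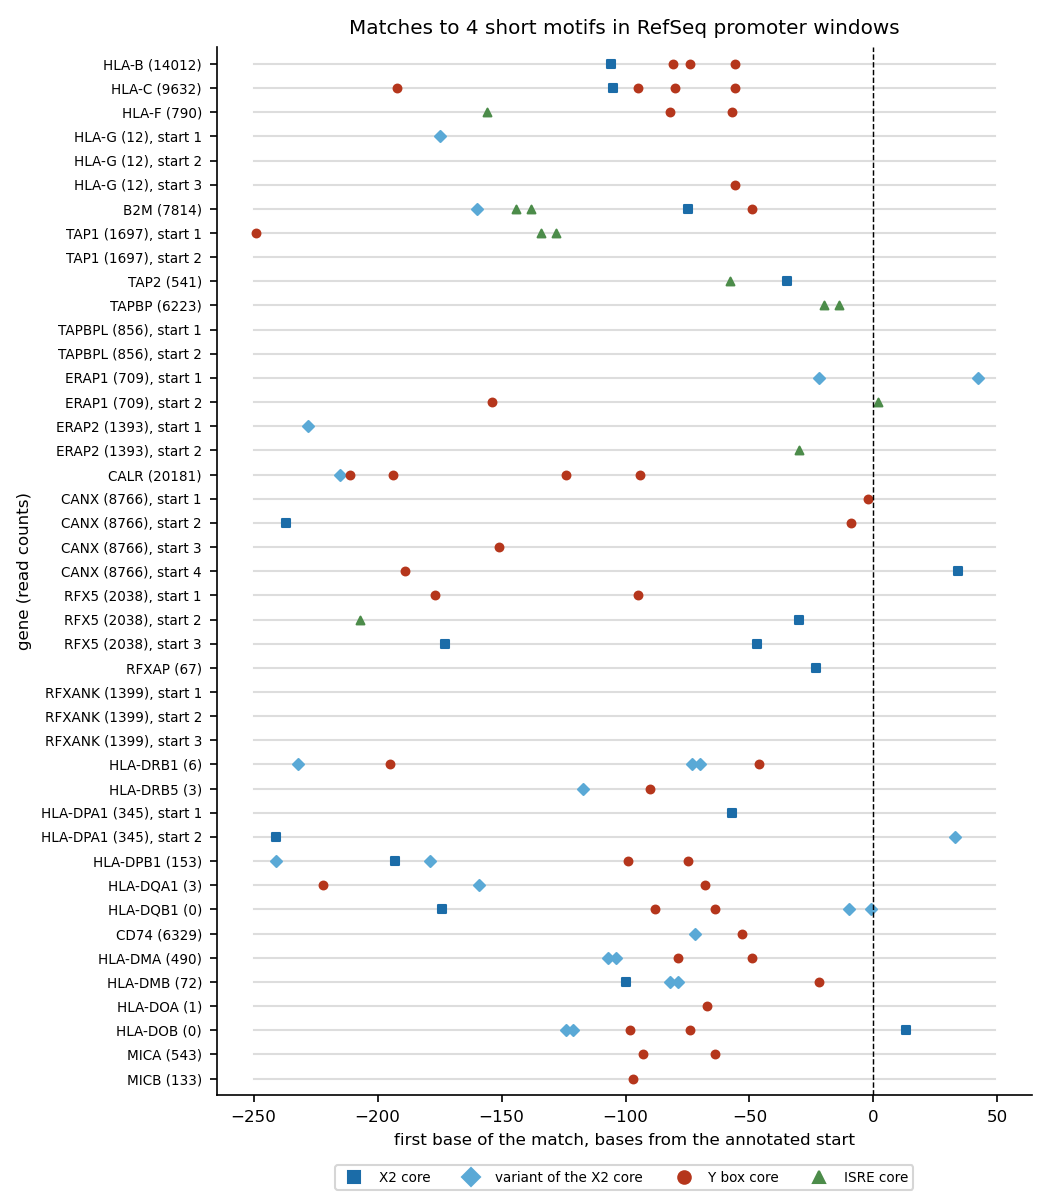
Positions of 4 motif cores in 43 RefSeq promoter windows of 29 members; the x axis is the first base of each match in bases from the annotated start, each row is 1 annotated start, and the read counts of the gene stand in brackets. HLA-B, HLA-C and B2M have the X2 core 25 or 26 bases upstream of a Y box core on the opposite strand. In HLA-DMB, HLA-DPB1, HLA-DQB1 and start 2 of CANX an X2 core lies farther upstream of a Y box core. TAP1, TAPBP and B2M have 2 interferon response cores side by side.

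The library held 25012733 counts, so 1 count equalled 0.04 CPM (counts per 1000000 counts) and a count of 0 allowed up to 3 counts, or 0.12 CPM, a one-sided limit that is lower than the upper end of the two-sided interval, 0.147 CPM. A gene with at least 10 counts is called detected. Of the 34 members 28 were detected, 4 had 1 to 9 counts and 2 were at 0. The background is 29.4% detected over all gene rows and 69.7% over protein-coding genes. The detected members had a median of 45.0 CPM, against 14.4 CPM for all detected genes and 26.4 CPM for detected protein-coding genes. Intervals are exact 95% Poisson or conditional intervals and cover counting error only. No gene lengths of the build were used, so a comparison between genes is one of read numbers and not of molecules. In RNA from a whole culture, fewer cells that express a gene and less RNA per cell cannot be told apart.

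**Figure D2:**
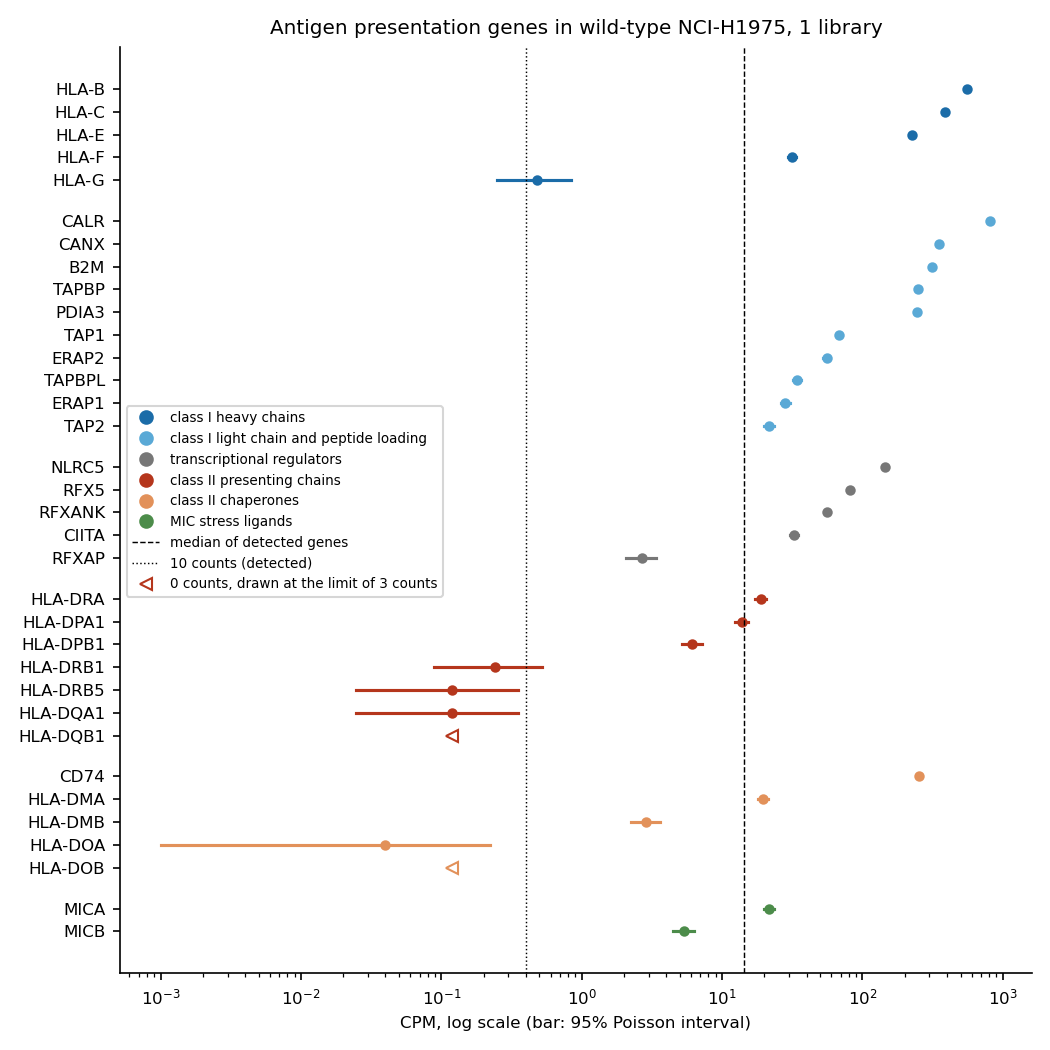
CPM of the 34 members on a log axis with 95% Poisson intervals, grouped by role; triangles mark the 2 members at 0, drawn at the limit of 3 counts. Class I heavy chains other than HLA-G and all peptide loading genes lie above the median of all detected genes, 14.4 CPM. Of these, only TAP2 lies below that of detected protein-coding genes, 26.4 CPM. HLA-DRB1, HLA-DRB5, HLA-DQA1, HLA-DQB1, HLA-DOA and HLA-DOB lie below the detection minimum.

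The class I heavy chains ranged from the second highest to the lowest count among the detected members, and HLA-B, HLA-C and HLA-E were the 3 highest of the 5. HLA-B (ENSG00000234745.10_2), a classical chain that presents peptides to CD8 T cells, had 14012 counts, or 560 CPM (551 to 570), and exceeded 98.9% of detected genes. HLA-C (ENSG00000204525.16_2), a classical chain that is also the main ligand of killer-cell immunoglobulin-like receptors, had 9632 counts, or 385 CPM (377 to 393). HLA-B had 1.45 times (1.42 to 1.49) the counts of HLA-C. HLA-E (ENSG00000204592.8_2), a non-classical chain that presents signal peptides of other class I chains to the receptor NKG2A, had 5688 counts, or 227 CPM (222 to 233), and HLA-B had 2.46 times (2.39 to 2.54) as many.

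The remaining non-classical chains were lower. HLA-F had 790 counts, or 31.6 CPM (29.4 to 33.9), so that HLA-E had 7.20 times (6.68 to 7.77) its counts. HLA-G, a chain best known from the placental trophoblast, had 12 counts, or 0.48 CPM (0.248 to 0.838), near the detection minimum, and exceeded 3.0% of detected genes. The interval for HLA-G includes the minimum. HLA-F had 65.8 times (37.5 to 128) the counts of HLA-G. Of the 30134 counts of these 5 chains, HLA-B held 46.5% (45.9 to 47.1), HLA-C 32.0% (31.4 to 32.5), HLA-E 18.9% (18.4 to 19.3), HLA-F 2.62% (2.44 to 2.81) and HLA-G 0.0398% (0.0206 to 0.0696). The shares are of these 5 genes only and not of all class I reads.

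Class I genes resemble each other and have many alleles, so reads could be shared, lost or placed on the wrong copy, and their treatment in the counting is unstated. Class I pseudogenes bear on this. Of 13 listed, 12 had a row and 4 were detected, led by HLA-H with 177 counts, HLA-L with 91 and HLA-V with 90. All 12 rows summed to 415 counts. HLA-G, with 12 counts, was lower than each of these 3 pseudogenes, and what shared reads contributed to its count was not tested.

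B2M, the light chain of every class I molecule, had 7814 counts, or 312 CPM (306 to 319), and 0.558 times (0.542 to 0.573) the counts of HLA-B. The peptide transporter is a dimer of TAP1 and TAP2. TAP1 had 1697 counts, or 67.8 CPM (64.7 to 71.2), and TAP2 had 541 counts, or 21.6 CPM (19.8 to 23.5), a ratio of 3.14 (2.85 to 3.46). Both partners were above the median of all detected genes, 14.4 CPM. TAP2 was below that of detected protein-coding genes, 26.4 CPM.

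The chaperones of the loading complex had higher counts than the transporter. CALR, the lectin chaperone calreticulin, was the highest of all 34 members with 20181 counts, or 807 CPM (796 to 818). CANX, its membrane-bound relative calnexin, had 8766 counts, or 350 CPM (343 to 358), and PDIA3, the thiol oxidoreductase that joins them, had 6093 counts, or 244 CPM (238 to 250). CALR had 2.30 times (2.25 to 2.36) and PDIA3 0.695 times (0.673 to 0.718) the counts of CANX. These 3 serve the folding of glycoproteins in general, and other chaperones and quality control genes of the endoplasmic reticulum were strongly read too. All 8 listed were detected, with a median of 343 CPM, led by HSPA5 with 18947 counts, GANAB with 14108 and SEC61A1 with 12794.

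Genes dedicated to class I peptide editing and trimming were spread more widely. TAPBP, or tapasin, which bridges the heavy chain and TAP, had 6223 counts, or 249 CPM (243 to 255). Its relative TAPBPL, a peptide editor that works outside the loading complex, had 856 counts, or 34.2 CPM (32.0 to 36.6), and TAPBP had 7.27 times (6.77 to 7.82) as many. The aminopeptidases that trim peptides to length were both detected. ERAP1 had 709 counts, or 28.3 CPM (26.3 to 30.5), which was 0.509 times (0.464 to 0.558) the 1393 counts, or 55.7 CPM (52.8 to 58.7), of ERAP2. ERAP1 and ERAP2 overlap in the annotation, and ERAP1 also overlaps CAST, which had 6052 counts. Since the strand setting of the counting is not given, the separate values of these genes are uncertain. The same holds for TAPBP, which overlaps RGL2 with 1858 counts, for TAPBPL, which overlaps VAMP1 with 147 and CD27 with 15, and for TAP1, which overlaps the non-coding PSMB8-AS1 with 226.

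The proteasome supplies the peptides. All 8 listed catalytic and activator subunits were detected, with a median of 87.9 CPM, led by PSMB7 with 3518 counts, PSME1 with 3108 and PSMB6 with 3066. The immunoproteasome subunits were read less than the constitutive subunits they replace. PSMB8 had 0.865 times (0.813 to 0.921) the counts of PSMB5, PSMB9 0.369 times (0.344 to 0.395) those of PSMB6, and PSMB10 0.115 times (0.103 to 0.127) those of PSMB7. The ratio was nearest to 1 for PSMB8 and farthest from it for PSMB10.

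**Figure D3:**
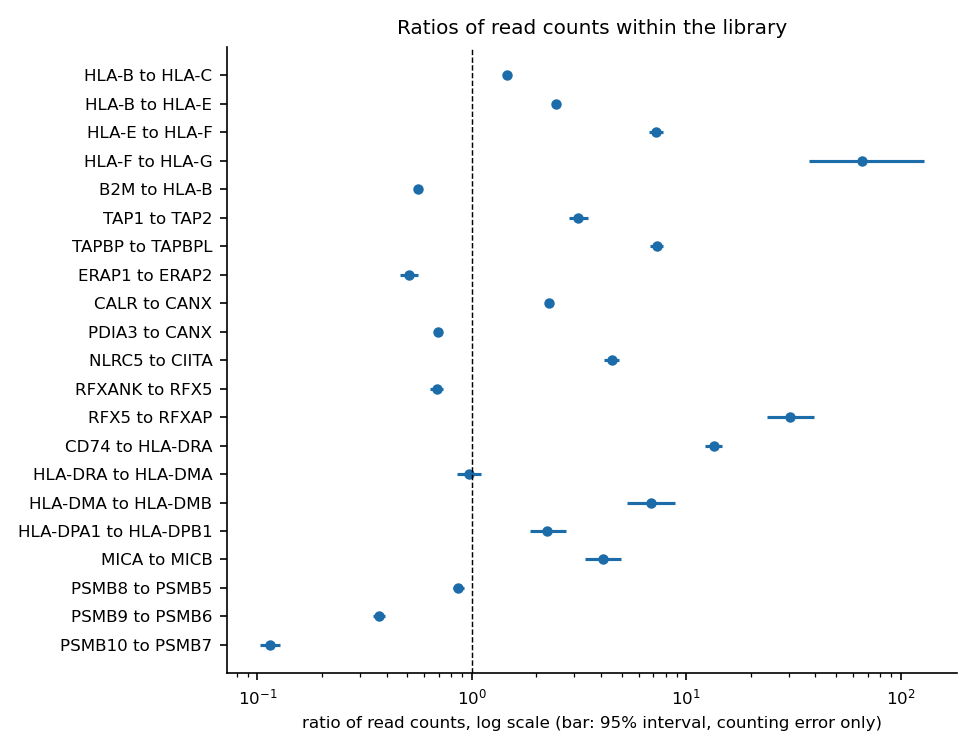
Ratios of read counts for 21 gene pairs within the library, on a log axis with 95% intervals for counting error. The interval for HLA-DRA to HLA-DMA spans 1, and the widest interval belongs to HLA-F to HLA-G, which rests on 12 counts of HLA-G.

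All 5 regulators were detected. NLRC5, the class I coactivator, had 3654 counts, or 146 CPM (141 to 151), and exceeded 92.6% of detected genes. CIITA (ENSG00000179583.19_4), the class II coactivator, had 815 counts, or 32.6 CPM (30.4 to 34.9), and exceeded 66.5% of detected genes. NLRC5 had 4.48 times (4.15 to 4.84) the counts of CIITA. CIITA overlaps DEXI in the annotation, which had 1132 counts, so its value is uncertain without the strand setting.

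The RFX complex is a trimer of RFX5, RFXANK and RFXAP, and its 3 genes differed widely in counts. RFX5 had 2038 counts, or 81.5 CPM (78.0 to 85.1), RFXANK had 1399 counts, or 55.9 CPM (53.0 to 58.9), and RFXAP had 67 counts, or 2.68 CPM (2.08 to 3.40). RFXANK had 0.686 times (0.641 to 0.735) the counts of RFX5, and RFX5 had 30.4 times (23.8 to 39.4) the counts of RFXAP. RFXANK overlaps NR2C2AP, which had 647 counts, so its value and ratio are uncertain in the same way. RFXAP was the only regulator below the median of detected genes. The partner factors NF-Y, CREB1 and ATF1 were all detected, with 5 of 5 genes and a median of 31.8 CPM, led by NFYA with 1246 counts, NFYC with 1006 and ATF1 with 795.

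Genes listed for the response to interferon gamma, which is known to raise NLRC5 and CIITA, were present throughout. The list is wider than the genes that carry this signal. All 10 listed were detected, against 69.7% of all protein-coding genes. Their median of 25.4 CPM was slightly below that of detected protein-coding genes, 26.4 CPM. JAK1, a kinase that binds to the receptor inside the cell, had 3443 counts and the transcription factor STAT2 had 2289. JAK2, the other kinase of the receptor, had 75 counts and SOCS1, an inhibitor of the pathway, had 80, the 2 lowest of the list. IRF1, a transcription factor known to act on class I promoters, had 1173 counts, or 46.9 CPM.

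Of 7 class II presenting chains 3 were detected, and 1 of these, HLA-DRA, lay above the median of all detected genes, 14.4 CPM. It lay below that of detected protein-coding genes, 26.4 CPM. The list's median over all 7 was 0.24 CPM, and all 7 held 983 counts together, so the 5 class I heavy chains had 30.7 times (28.8 to 32.7) as many. HLA-DRA (ENSG00000204287.13_2), the invariant alpha chain of the DR molecule, had 473 counts, or 18.9 CPM (17.2 to 20.7), and exceeded 55.1% of detected genes. Its beta chains were nearly unread: HLA-DRB1 had 6 counts, or 0.24 CPM (0.088 to 0.522), and HLA-DRB5 had 3 counts, or 0.12 CPM (0.0247 to 0.351). With HLA-DRB6 at 3 counts and HLA-DRB9 at 0, the 4 DRB rows summed to 12 counts.

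Among the presenting chains, DP was the only molecule with both its alpha and its beta gene detected. HLA-DPA1 had 345 counts, or 13.8 CPM (12.4 to 15.3), and HLA-DPB1 had 153 counts, or 6.12 CPM (5.19 to 7.17), a ratio of 2.25 (1.86 to 2.75). These genes overlap in the annotation, so their separate values are uncertain. The DQ chains were under the minimum, with 3 counts for HLA-DQA1 and 0 for HLA-DQB1, which allows up to 0.12 CPM. HLA-DRA held 48.1% (45.0 to 51.3) of the presenting chain counts, HLA-DPA1 35.1% (32.1 to 38.2) and HLA-DPB1 15.6% (13.4 to 18.0), while the DRB and DQ genes held at most 0.61% each.

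The DRB and DQ genes differ strongly between haplotypes and resemble their own paralogs. HLA-DRB3, HLA-DRB4 and HLA-DRB2 had no row, and of the 8 listed class II paralogs and pseudogenes with a row none reached 10 counts. Those 8 rows held 4 counts in all. The part of shared or unplaced reads in the low DRB and DQ counts was not tested.

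The chaperones of class II loading did not follow 1 level. CD74 (ENSG00000019582.14_4), the invariant chain, had 6329 counts, or 253 CPM (247 to 259), and exceeded 96.5% of detected genes. Its reads were 13.4 times (12.2 to 14.7) those of HLA-DRA. HLA-DMA and HLA-DMB form the peptide exchanger HLA-DM, and had 490 counts, or 19.6 CPM (17.9 to 21.4), and 72 counts, or 2.88 CPM (2.25 to 3.63), a ratio of 6.81 (5.31 to 8.84). HLA-DRA and HLA-DMA did not differ beyond counting error, with a ratio of 0.965 (0.849 to 1.10). HLA-DOA and HLA-DOB, which form the HLA-DM inhibitor found mainly in B cells, had 1 and 0 counts.

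Genes of the endosomal compartment where class II molecules are loaded were led by lysosomal proteases. Of 9 listed, 7 reached 10 counts and had a median of 140 CPM. The highest were CTSB with 16713 counts, CTSD with 11671 and LGMN with 4431. CTSS, the protease best known for the last steps of invariant chain cleavage, had 302 counts, or 12.1 CPM. The thiol reductase IFI30 had 6 counts, and MARCHF1, a ubiquitin ligase that removes class II molecules from the surface, was at 0, whereas its relative MARCHF8 had 957.

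Markers of leukocytes were read beside the class II genes, which such cells express. Of 17 markers of leukocytes and professional antigen-presenting cells 4 were detected, with 1633 counts over the list: CSF1R with 731 counts, CD14 with 600, CD79A with 217 and ITGAX with 69. The pan-leukocyte marker PTPRC had 2 counts and the lysozyme gene LYZ had 1. CD3D, CD2, MS4A1, AIF1, CYBB, CLEC9A and CD1C were at 0. All 8 epithelial markers were detected, with a median of 1074 CPM and 132533 counts for KRT7, 65584 for KRT8 and 48349 for KRT19. The library came from an established lung adenocarcinoma line. Whether any leukocytes contributed to the class II and CD74 counts was not tested.

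Along chromosome 6 most members under the detection minimum stood in 1 run. The annotation places 21 of the 34 members on this chromosome. In their order, HLA-E, HLA-C and HLA-B, at 5688, 9632 and 14012 counts, stand side by side among the members and were the 3 highest of the 5 class I chains, preceded by HLA-F at 790 and HLA-G at 12. After MICA, MICB and HLA-DRA come 5 members in a row under the minimum: HLA-DRB5, HLA-DRB1, HLA-DQA1, HLA-DQB1 and HLA-DOB, at 3, 6, 3, 0 and 0 counts. TAP2 and TAP1 follow with 541 and 1697 counts, then HLA-DMB and HLA-DMA with 72 and 490, HLA-DOA with 1, HLA-DPA1 and HLA-DPB1 with 345 and 153, and TAPBP with 6223. The low class II genes were thus not 1 block, since HLA-DOA lies between detected genes.

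**Figure D4:**
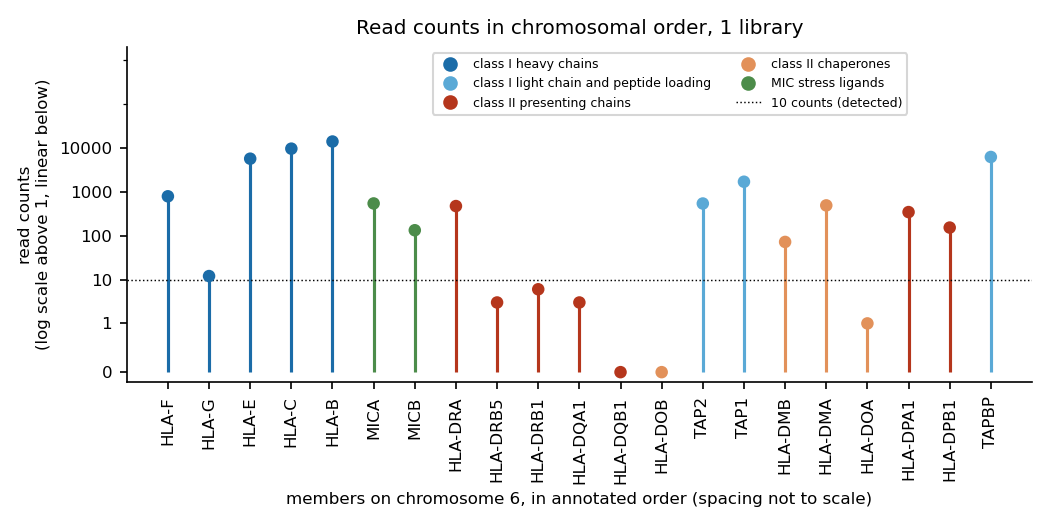
Read counts of the 21 members on chromosome 6 in annotated order (log axis above 1, spacing not to scale), with the detection minimum dotted. HLA-DRB5 to HLA-DOB form a run of 5 members at 6 counts or fewer, between HLA-DRA at 473 and TAP2 at 541.

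The MIC proteins do not present peptides. They are stress-induced relatives of class I chains that activate natural killer cells through the receptor NKG2D. MICA had 543 counts, or 21.7 CPM (19.9 to 23.6), and MICB had 133 counts, or 5.32 CPM (4.45 to 6.30), a ratio of 4.08 (3.37 to 4.97). The MIC pseudogenes MICE and MICD had 22 and 3 counts. All 6 other NKG2D ligands listed were detected, but with a median of 2.98 CPM, led by ULBP2 with 241 counts, ULBP1 with 239 and ULBP3 with 102. MICA had more counts than each of them.

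Of 10 class I relatives outside the HLA cluster 5 were detected, and their median was 15.8 CPM. PROCR, the endothelial protein C receptor, had 1370 counts, MR1, which presents vitamin B metabolites, had 481, and the neonatal Fc receptor chain FCGRT had 394. The lipid-presenting CD1 genes were nearly unread, with 1 count for CD1D and 0 for CD1A, CD1B, CD1C and CD1E.

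Ordered by read counts, the 28 detected members formed 27 adjacent pairs, of which 17 differed beyond counting error and 10 did not. CD74, TAPBP and PDIA3 were such near neighbours, as were TAPBPL, CIITA and HLA-F. MICA, TAP2, HLA-DMA and HLA-DRA formed a run in which no direct neighbours differed beyond counting error, with 543, 541, 490 and 473 counts. RFXANK and ERAP2, HLA-DPB1 and MICB, and HLA-DMB and RFXAP were the other pairs. The order says nothing of molecules, and another library could reorder neighbours by more than counting error.

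**Figure D5:**
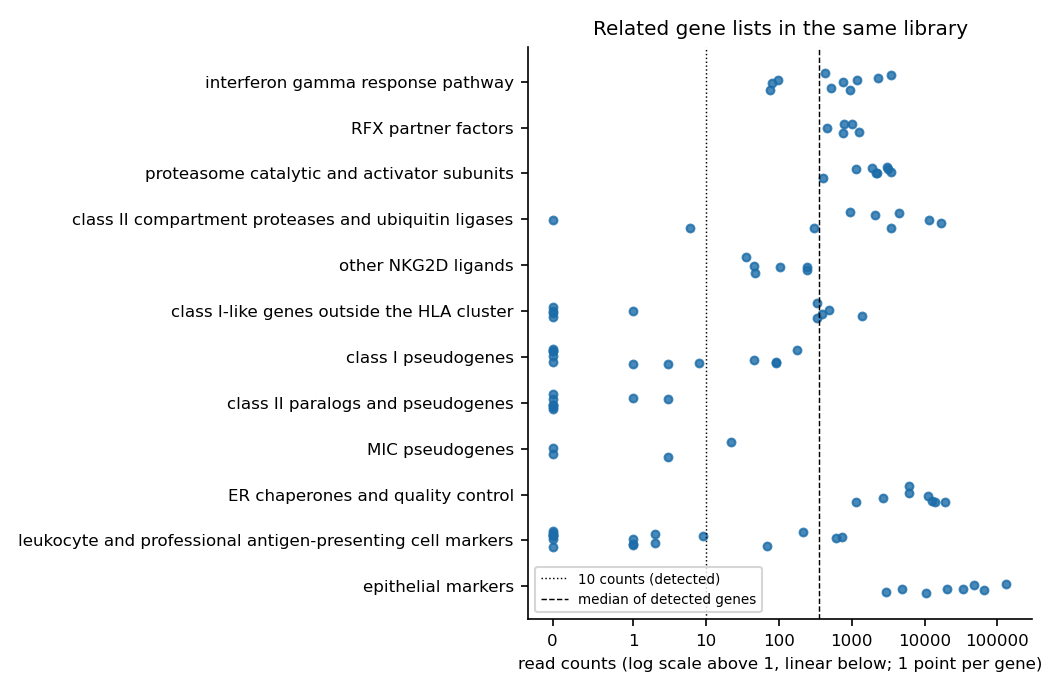
Read counts of related gene lists and marker lists, 1 point per gene (log axis above 1), with the detection minimum dotted and the median of detected genes dashed. All interferon gamma response, RFX partner, proteasome and chaperone genes listed lie above 10 counts, whereas 7 of 17 leukocyte markers lie at 0.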

How the data were processed

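The authors deposited raw whole-number read counts per gene for 1 library, without header or normalisation. The aligner STAR, the counter featureCounts and the build hg19 are named without roles, per the submitters' processing notes, beside tools for ATAC-seq. Annotation release, strandedness of the counting and handling of shared reads were not given in the sources used here. Per the labels' protocols the library was directional, from 1 ug of Trizol-extracted total RNA.

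Identifiers were matched without version to current symbols (56373 of 60880 rows, holding 99.8% of counts). Gene type, chromosomal order and overlaps came from a RefSeq table of GRCh38.p14, used for names and neighbours only. Levels are counts per 1000000 of the library total, with Garwood intervals. Ratios have exact conditional and shares Clopper-Pearson intervals, all at 95%. The intervals and the floor of 3 counts cover counting error only, since reads carry no molecular identifiers. Interval code was tested on simulated data. No p-value was computed. RefSeq promoter windows run from 250 bases before to 50 after a start. Of the members 29 had 1 or more.

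The members, gene lists and 23 gene pairs were chosen with earlier results of these data known, and TGATG and the motif pair after the sequences were read. The text names all members and, of each related list, the 3 highest genes and up to 3 under 10 counts. A few listed genes are not reported here. Others (JAK2, SOCS1, CTSS, MARCHF8 and further markers and CD1 genes) were added after their values were seen. Alternatives were other detection minimums, totals, thinned counts and paralog rows. Code ran in Python 3.11.15 with SciPy 1.17.1 for intervals, pandas 2.3.3 and NumPy 2.4.6 for tables, and Matplotlib 3.10.9 for plots.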

Additional observations from a re-analysis of the deposited data

Results flagged for a closer look

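Antisense and overlapping non-coding genes of the members lie outside the lists above and were looked at because each bears on a member's value when the strand setting of the counting is unknown. HLA-F-AS1, antisense to HLA-F, had 76 counts, against 790 for HLA-F, and RFX5-AS1 had 6 counts, against 2038 for RFX5. PSMB8-AS1, which overlaps TAP1, had 226 counts, against 1697 for TAP1. All 3 exceed the limit of 3 counts that a count of 0 allows, and HLA-DQB1-AS1 was at 0.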

How the results depend on the processing

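The number of members detected, 28 in the main setting, was 32 at a minimum of 1 count. It was 27 at a minimum of 50 counts, at 1 CPM and after random thinning to 50%. Related lists are named only where their number changed beyond 1.5 times. Among related lists, a minimum of 1 count gave 7 class I pseudogenes, 2 class II paralogs or pseudogenes, 2 MIC pseudogenes and 10 leukocyte markers, and a minimum of 50 counts gave 3 other NKG2D ligands and 0 MIC pseudogenes. The median of detected members became 48.4 CPM without the 10 genes with the highest counts in the total and 48.9 CPM with protein-coding genes only. Such totals scale every CPM by the same factor, 1.06 to 1.09, and change no order. Of 21 ratios 20 stayed inside their intervals after thinning, and PDIA3 to CANX became 0.719. Thinning draws at random from the same counts, so it shows counting error and no effect of processing. With pseudogene rows in the total the HLA-B share became 45.9%, and the other 11 shares stayed inside their intervals. Ratios per residue of protein were not run, because no protein sequences were used here, and HLA-DRA to HLA-DRB1 and HLA-DQA1 to HLA-DQB1 have no ratio because a gene was under 10 counts. No replicate could be left out. No paired analysis was possible because there was a single library with counts. At this depth a member at 0 could hold up to 0.12 CPM.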
